A study of Homo sapiens with 8 samples.

Results

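The kinesin motor family was examined in 8 RNA sequencing libraries of the human lung cancer lines NCI-H1944 and NCI-H647. The members were the protein-coding genes with a numbered KIF symbol (KIF1A to KIF27) or the symbols KIFC1, KIFC2 and KIFC3, with the row of highest count taken for any symbol that had several. Both count tables held the same 42 members, out of 46427 listed genes in NCI-H1944 and 61271 in NCI-H647. They were grouped by known role into 15 mitotic kinesins, 17 transport kinesins and 10 ciliary and other kinesins. CENPE, the kinetochore kinesin, has no KIF symbol and is given among the mitotic partners. Cells of each line, wild type per the labels, received either BAY-1217389 at 100 nM (MPS1i), which inhibits MPS1, a kinase of the spindle checkpoint, or the solvent DMSO. After 48 hours the agent was removed and the cells were grown for 24 hours more before collection. Each of the 4 groups (MPS1i and DMSO in NCI-H1944, MPS1i and DMSO in NCI-H647) held 2 libraries. The labels do not say that these came from separate cultures, so the p-values measure the spread between libraries, which may be technical.

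NCI-H1944 libraries held between 38904473 and 43661342 counts, and NCI-H647 libraries between 13358514 and 19550859. Levels are given as CPM, counts scaled to library size with TMM factors. The floor of 3 counts lay between 0.0687 and 0.0771 CPM in NCI-H1944 and between 0.153 and 0.225 CPM in NCI-H647, and it covers counting error only. NCI-H1944 libraries were made from poly(A) RNA and NCI-H647 libraries after ribosomal RNA depletion, so the line and the library kit cannot be told apart in any comparison between lines. Of 6 epithelial markers, the keratins KRT8, KRT18 and KRT7 were abundant in both lines, EPCAM was at 1.90 to 5.15 CPM in every library, KRT19 was at 0 in every NCI-H1944 library and CDH1 was under 1 CPM in NCI-H647. KRT8 and KRT18 were higher after MPS1i in NCI-H1944 (log2 0.29 and 0.19), whereas KRT8, KRT18 and KRT7 were lower in NCI-H647 (log2 -0.41, -0.30 and -0.70). KRT19 went the other way in NCI-H647 and was higher (log2 0.35 ± 0.13, adjusted p = 0.0265). Of 5 lung lineage markers, NKX2-1, SFTPB and KRT5 were at 0 in every NCI-H1944 library and KRT5 in every NCI-H647 library, and the summed level of the 5 was at most 2.73 CPM in NCI-H1944 and 5.24 CPM in NCI-H647.

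Kinesins are motor proteins that hydrolyse ATP to move along microtubules or to take microtubule ends apart. The mitotic group acts when cells divide: some members push the spindle poles apart, some carry chromosome arms or trim microtubule ends, and others build the central spindle on which cytokinesis depends. Many mitotic kinesin genes belong to the late cell cycle program, whose transcripts peak in G2 and mitosis and are low in arrested cells. That program is read in part through a promoter element called the cell cycle genes homology region (CHR), bound by the DREAM repressor complex and by the B-MYB and FOXM1 activators, often close to CCAAT boxes bound by NF-Y. Transport kinesins instead carry vesicles, mitochondria, lysosomes and ciliary components in dividing and non-dividing cells alike.

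The promoters of the mitotic and transport kinesins differed in these elements, and 9 are shown as examples. Each is the RefSeq sequence (GRCh38.p14) from 110 bases before to 20 bases after the annotated start, 5′ to 3′ on the strand of the gene, and capitals mark matches to the CHR (TTTGAA, or TTCAAA on the other strand), to its variant TTTAAA, and to the CCAAT box (CCAAT, or ATTGG on the other strand). The first 4 belong to cytokinesis and spindle-sliding motors: KIF20A lies at chr5:138179002-138179131 (plus strand), KIF14 at chr1:200620732-200620861 (minus strand), KIF23 at chr15:69414239-69414368 (plus strand) and KIF11 at chr10:92593020-92593149 (plus strand). KIFC1, a minus-end motor of the spindle, lies at chr6:33391713-33391842 (plus strand), KIF4A at chrX:70289994-70290123 (plus strand) and KIF18A at chr11:28108137-28108266 (minus strand).
KIF20A: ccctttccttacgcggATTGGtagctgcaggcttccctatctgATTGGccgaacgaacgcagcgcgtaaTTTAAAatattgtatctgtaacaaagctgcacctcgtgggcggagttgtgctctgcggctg
KIF14: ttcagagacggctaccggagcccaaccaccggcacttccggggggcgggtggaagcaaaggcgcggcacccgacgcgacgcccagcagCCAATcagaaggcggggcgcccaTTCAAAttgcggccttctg
KIF23: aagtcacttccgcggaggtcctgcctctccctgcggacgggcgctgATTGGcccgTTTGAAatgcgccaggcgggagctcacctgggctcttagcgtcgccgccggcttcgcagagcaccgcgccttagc
KIF11: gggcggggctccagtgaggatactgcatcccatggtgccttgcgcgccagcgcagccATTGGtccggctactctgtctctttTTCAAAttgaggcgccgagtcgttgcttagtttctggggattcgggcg
KIFC1: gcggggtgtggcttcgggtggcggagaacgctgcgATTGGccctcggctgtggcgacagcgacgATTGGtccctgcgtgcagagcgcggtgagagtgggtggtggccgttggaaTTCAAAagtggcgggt
KIF4A: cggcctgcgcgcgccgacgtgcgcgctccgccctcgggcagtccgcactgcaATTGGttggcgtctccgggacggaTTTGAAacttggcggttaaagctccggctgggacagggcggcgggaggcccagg
KIF18A: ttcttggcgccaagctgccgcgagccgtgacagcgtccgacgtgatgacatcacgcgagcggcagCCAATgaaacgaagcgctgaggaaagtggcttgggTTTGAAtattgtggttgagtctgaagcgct
All 7 windows hold a CHR or its variant near the start, downstream of at least 1 CCAAT box. They do not stand for every mitotic kinesin that was lower in both lines. In the longer windows described below, KIF22 held no CHR or variant, and KIF2C and KIF15 held no CCAAT box. For contrast, KIF2A, the mitotic kinesin that moved least, lies at chr5:62306096-62306225 (plus strand), and KIF3C, the transport kinesin that was higher in both lines, at chr2:25982478-25982607 (minus strand). Neither window holds a match, whereas the longer window of KIF5B, a transport kinesin lower in both lines, held a CHR and a CCAAT box.
KIF2A: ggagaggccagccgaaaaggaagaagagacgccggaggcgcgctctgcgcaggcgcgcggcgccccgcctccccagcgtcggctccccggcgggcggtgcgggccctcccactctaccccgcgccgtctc
KIF3C: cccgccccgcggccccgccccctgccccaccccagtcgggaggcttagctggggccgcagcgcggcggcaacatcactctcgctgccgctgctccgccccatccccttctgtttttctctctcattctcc

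Promoter windows of 300 bases (250 before to 50 after the start) were listed for 34 of the 42 members: 15 mitotic, 12 transport and 7 ciliary and other. The CHR was present in 10 of 15 mitotic windows, 1 of 12 transport windows and 0 of 7 others, against 12.4% of 21509 protein-coding windows. The transport window with a match was that of KIF5B, the ubiquitous kinesin-1 heavy chain, where the CHR began 140 bases before the start. With the variant counted as well, 12 of 15 mitotic windows matched, against 2 of 12 transport windows, 0 of 7 others and 20.1% of protein-coding windows. CCAAT boxes stood in 11 of 15 mitotic, 3 of 12 transport and 3 of 7 other windows, against 34.9%. A CHR together with a CCAAT box was found in 9 of 15 mitotic windows, 1 of 12 transport windows and 5.02% of protein-coding windows. The E2F letters searched (TTTCCCGC, TTTCGCGC, TTTGCCGC and TTTGGCGC, both strands) were found in 1 of 15 mitotic windows (KIF15), 0 of 12 transport windows and 1 of 7 others (KIF25), against 4.12% of protein-coding windows. In KIF15 the match ended next to the CHR without sharing a base. These are letter matches in a fixed window, and no binding was measured.

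**Figure D1:**
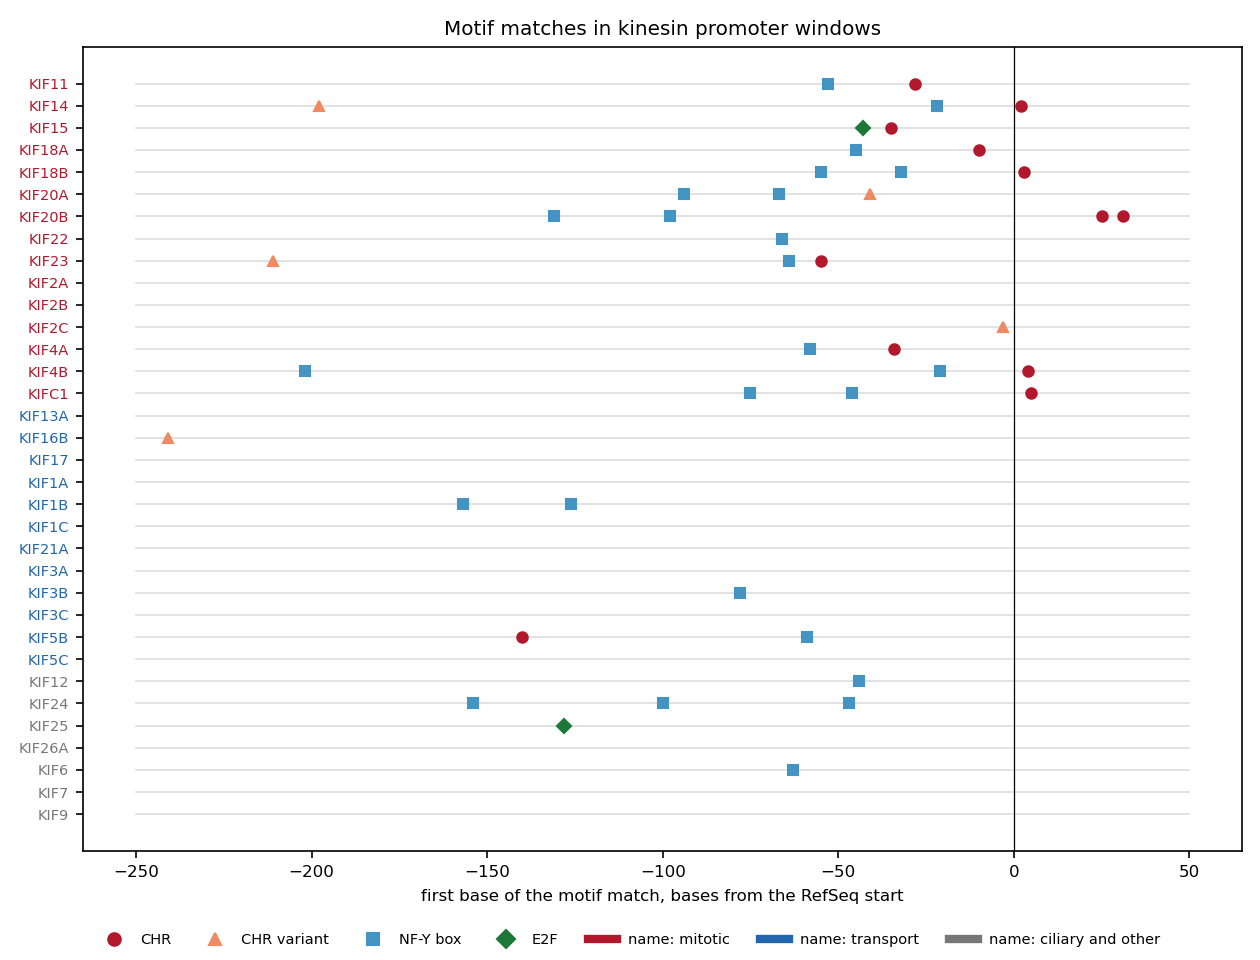
Positions of motif matches in the RefSeq promoter windows of the kinesins, with distance from the annotated start in bases on the x axis, 1 line per gene grouped by role, and 1 mark per match (the CCAAT box is drawn as NF-Y box). Matches to the CHR or its variant cluster near the start in 12 of 15 mitotic windows, whereas 2 of 12 transport windows hold one, both more than 100 bases upstream.

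In NCI-H1944 the mitotic kinesins fell as a group and the transport kinesins did not. Of the 42 members, 36 passed the low-count filter and 5 were at 0 in every library (KIF5C, KIF25, KIF2B, KIF19 and KIF6). Among 13 mitotic kinesins tested, 12 were lower after MPS1i and 0 were higher at an adjusted p under 0.05, where 12.4% of all 16738 tested genes were lower and 13.6% were higher (26.0% in either direction). Their median log2 fold change was -0.63, a 1.55-fold lower level, beside 0.00 for all tested genes. A fall of at least 1.5-fold was found for 8 of the 13, against 1.03% of tested genes. Both MPS1i libraries lay below both DMSO libraries for 12 of the 13, against 30.5% of tested genes. RNA was measured in bulk, so fewer cells expressing these genes and less RNA per cell cannot be told apart.

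By median, the motors of the central spindle and cytokinesis fell most, with a log2 fold change of -0.75 over 4 genes, all lower. KIF2C, which acts at microtubule ends, fell more (log2 -0.78) than the central spindle motors KIF20B and KIF23. KIF20A, which carries the chromosomal passenger complex to the central spindle, had 10.4 and 11.5 CPM in MPS1i libraries, against 20.9 and 23.5 CPM in DMSO libraries. The fall was 2.03-fold (log2 -1.02 ± 0.09 SE, adjusted p = 2.99e-07), rank 92 from the most lowered of 16738 genes. KIF14, which binds the abscission regulator citron kinase, had 22.2 and 22.4 CPM in MPS1i libraries, against 42.5 and 38.2 CPM in DMSO libraries (log2 -0.86 ± 0.07, adjusted p = 5.95e-08). The treated and control values of both genes were far apart next to the distance between replicates. KIF20B, another late mitotic motor of the same family as KIF20A, had 19.8 and 19.7 CPM after MPS1i, against 32.2 and 29.2 CPM after DMSO (log2 -0.63 ± 0.07, adjusted p = 5.6e-06). KIF23, the motor subunit of centralspindlin, had 35.8 and 32.7 CPM after MPS1i, against 52.5 and 50.5 CPM after DMSO (log2 -0.59 ± 0.06, adjusted p = 9.03e-07).

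The 3 motors that slide spindle microtubules were all lower in NCI-H1944, with a median log2 fold change of -0.57. KIF11 (Eg5), which pushes the spindle poles apart, had 42.4 and 38.4 CPM in MPS1i libraries, against 63.8 and 64.9 CPM in DMSO libraries (log2 -0.67 ± 0.05, adjusted p = 8.17e-08). KIF15, which can stand in for KIF11 in keeping the spindle bipolar, had 5.42 and 6.80 CPM after MPS1i, against 8.08 and 9.33 CPM after DMSO (log2 -0.51 ± 0.13, adjusted p = 0.00977). Its libraries did not overlap between groups, but relative to their level they spread more than those of the other tested mitotic kinesins. This call was lost with no low-count filter (adjusted p = 0.123) and without MPS1i replicate 1 (adjusted p = 0.117). KIFC1, a minus-end motor that focuses spindle poles and clusters extra centrosomes, had 18.7 and 20.7 CPM after MPS1i, against 30.4 and 28.1 CPM after DMSO (log2 -0.57 ± 0.08, adjusted p = 2.95e-05).

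Chromosome-arm motors and regulators of microtubule ends showed falls of similar size, with KIF2A as the exception. KIF4A, a chromokinesin that limits central spindle length, had 19.8 and 21.2 CPM in MPS1i libraries, against 31.3 and 34.5 CPM in DMSO libraries (log2 -0.68 ± 0.07, adjusted p = 2.49e-06). KIF22, the chromokinesin Kid that pushes arms toward the equator, had 32.1 and 32.9 CPM after MPS1i, against 44.9 and 47.8 CPM after DMSO (log2 -0.51 ± 0.06, adjusted p = 3.79e-06). KIF2C (MCAK), a depolymerase that corrects wrong attachments at kinetochores, had 24.1 and 23.6 CPM after MPS1i, against 40.7 and 41.1 CPM after DMSO (log2 -0.78 ± 0.06, adjusted p = 4.54e-08). In these 3 genes the highest treated library stayed well below the lowest control library. KIF18B, a partner of KIF2C at microtubule plus ends, had 20.4 and 20.7 CPM after MPS1i, against 32.4 and 33.2 CPM after DMSO (log2 -0.67 ± 0.07, adjusted p = 9.31e-07). KIF18A, which damps chromosome movements at the metaphase plate, had 12.7 and 14.5 CPM after MPS1i, against 18.6 and 18.8 CPM after DMSO (log2 -0.46 ± 0.09, adjusted p = 0.00102). KIF2A, a spindle-pole depolymerase that also acts in neurons and cilia, had 46.7 and 46.5 CPM after MPS1i, against 46.5 and 48.1 CPM after DMSO. Its groups overlapped and it was not called (log2 -0.02 ± 0.05, adjusted p = 0.82). KIF2B was at 0 in every library of both lines. KIF4B, a near-identical copy of KIF4A whose reads may be assigned to either gene, held too few counts to test.

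**Figure D2:**
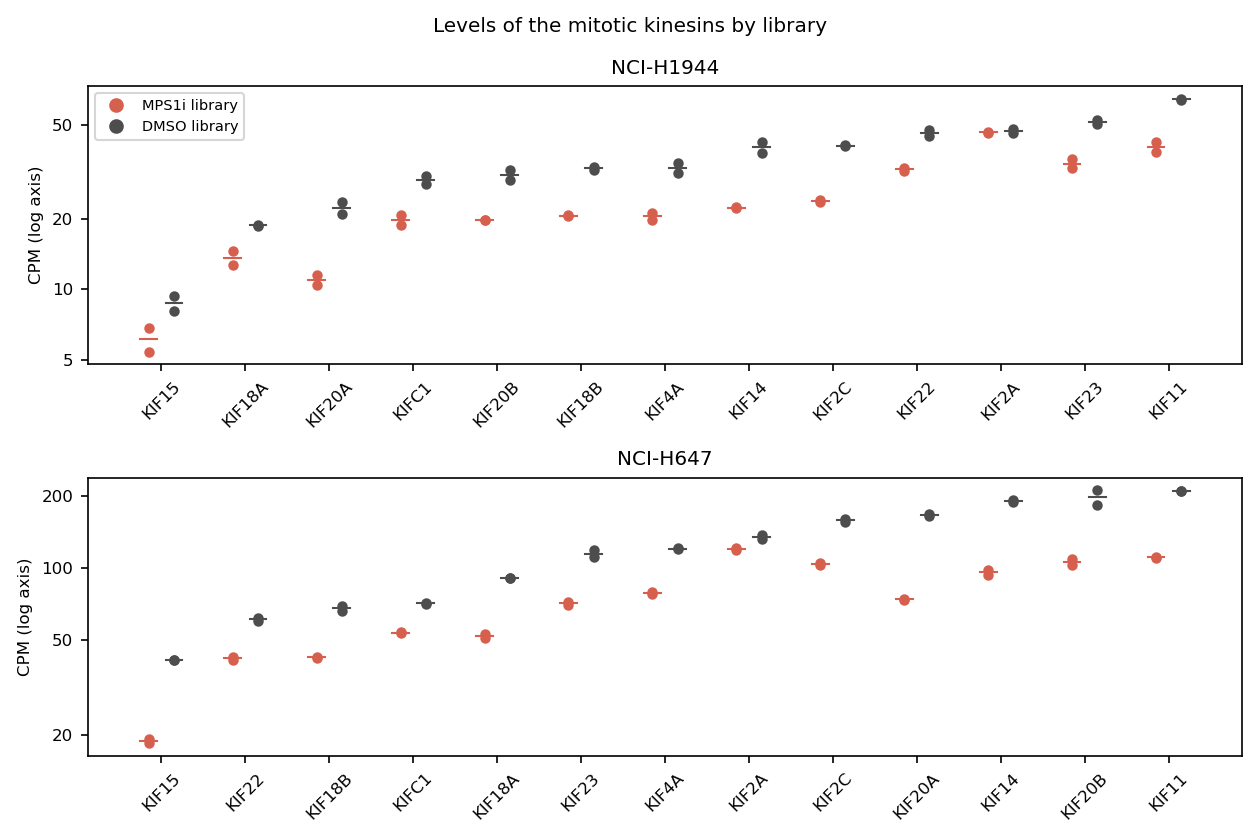
CPM of the mitotic kinesins in each library (log axis), NCI-H1944 and NCI-H647 in separate panels, with MPS1i left of DMSO for each gene 1 point per library and a short line at the mean. Points of the groups are apart for every gene drawn except KIF2A in NCI-H1944, where they overlap near 47 CPM.

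In NCI-H1944 the transport kinesins moved little and in both directions. Of 16 tested, 4 were lower, 2 were higher and 10 were not called, beside 12.4% lower and 13.6% higher among all genes, and their median log2 fold change was -0.02. Kinesin-1 heavy chains, which carry mitochondria, lysosomes and many vesicles, did not move together. KIF5B, the most abundant member of the family per kilobase of exon, had 307 and 305 CPM in MPS1i libraries, against 344 and 348 CPM in DMSO libraries (log2 -0.18 ± 0.03, adjusted p = 0.000237). KIF5A, the neuronal kinesin-1, had 39 and 41 counts after MPS1i, against 11 and 13 counts after DMSO, or 0.895 and 0.958 CPM against 0.279 and 0.332 CPM (log2 1.59 ± 0.43, adjusted p = 0.0116). Both treated libraries lay above both controls, all under 1 CPM. The call was lost under DESeq2 (adjusted p = 0.0625), without MPS1i replicate 1 (adjusted p = 0.0633) and without MPS1i replicate 2 (adjusted p = 0.0838). KIF5A overlaps DCTN2 on the opposite strand, and the strand setting of the counting is not given in the sources used here. DCTN2 itself had 86.6 and 92.0 CPM after MPS1i, against 102.2 and 102.6 CPM after DMSO (log2 -0.20 ± 0.04, adjusted p = 0.00183). Of the 6 neuronal markers, 5 were tested in NCI-H1944 and 1, SYT1, was higher (log2 1.28 ± 0.40, adjusted p = 0.0249). Their summed level was 73.7 to 78.8 CPM in MPS1i libraries and 70.6 to 71.2 CPM in DMSO libraries, with STMN2 at 0 in all, and their part in the KIF5A value was not tested.

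Kinesin-2 motors drive intraflagellar transport and membrane traffic. KIF3C had 14.2 and 13.6 CPM in MPS1i libraries, against 8.94 and 10.1 CPM in DMSO libraries of NCI-H1944 (log2 0.54 ± 0.10, adjusted p = 0.000586). Its partner subunit KIF3A did not change beyond its error, with a log2 fold change of 0.00 ± 0.10 (adjusted p = 0.986). KIF3B, the usual partner of KIF3A, had 77.5 and 74.1 CPM after MPS1i, against 86.1 and 82.1 CPM after DMSO (log2 -0.15 ± 0.04, adjusted p = 0.0192). Among the kinesin-3 motors, KIF1C, which carries vesicles and messenger RNA, had 118.7 and 123.7 CPM after MPS1i, against 142.0 and 138.9 CPM after DMSO (log2 -0.21 ± 0.04, adjusted p = 0.000493). KIF13B, another kinesin-3 motor, had 19.8 and 21.6 CPM after MPS1i, against 24.2 and 24.3 CPM after DMSO (log2 -0.22 ± 0.07, adjusted p = 0.0369). DESeq2 called neither KIF3B (adjusted p = 0.0597) nor KIF13B (0.141) in NCI-H1944. Both calls were also lost in edgeR with no low-count filter (adjusted p = 0.112 and 0.124). The KIF3B call was lost without DMSO replicate 1 (adjusted p = 0.198) or MPS1i replicate 2 (0.111). The KIF13B call was lost without DMSO replicate 1 (adjusted p = 0.0757), DMSO replicate 2 (0.0891) or MPS1i replicate 1 (0.232). The kinesin-3 members KIF13A, KIF16B and KIF1B, the kinesin-4 members KIF21A and KIF21B and the minus-end motor KIFC3 had log2 fold changes between -0.09 and 0.02, and none of them was called. KIF17, KIF1A and KIFC2 were not called either. None of the 7 tested ciliary and other kinesins was called by edgeR, where 26.0% of all tested genes were called in either direction. Also 0 of these 7 kinesins had an unadjusted p under 0.05, and their median was 0.04. DESeq2 called 0 of them as well. Of 6 multiciliated-cell markers, FOXJ1 and PIFO were at 0 in every NCI-H1944 library. The 6 summed to between 1.51 and 1.61 CPM in MPS1i libraries and between 1.55 and 2.197 CPM in DMSO libraries, and neither of the 2 tested (DNAH5 and RSPH1) was called.

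**Figure D3:**
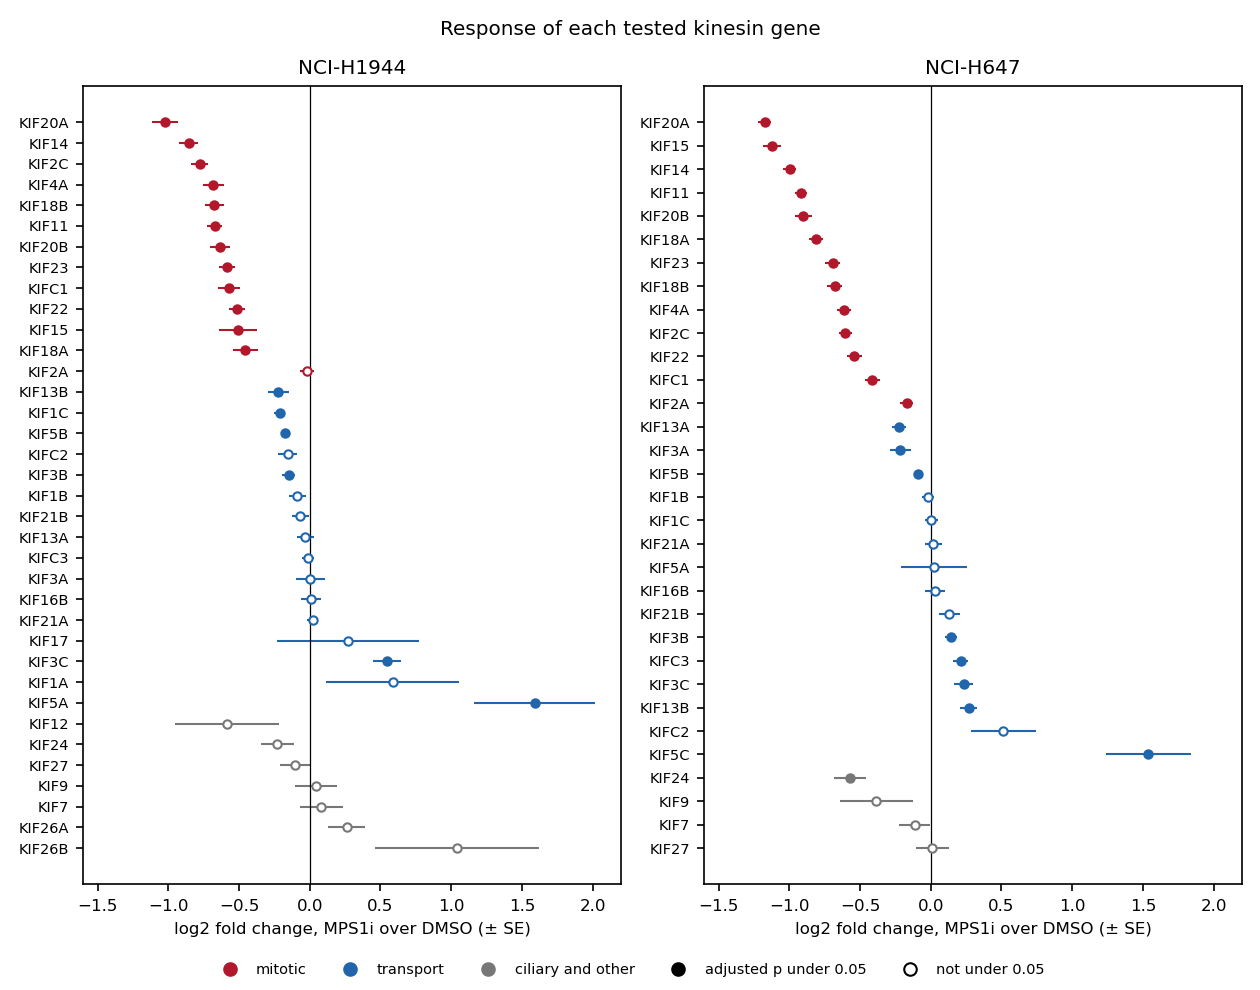
Log2 fold change of each tested kinesin, MPS1i over DMSO, with its standard error, in each line, coloured by role. All tested mitotic kinesins lie left of 0, with KIF2A in NCI-H1944 nearest to it at -0.02. Transport kinesins spread to both sides, with KIF5A in NCI-H1944 (1.59) and KIF5C in NCI-H647 (1.54) farthest to the right.

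In NCI-H647 every tested mitotic kinesin was lower after MPS1i, including KIF2A. Of the 42 members 32 passed the filter, and KIF2B and KIF25 were at 0 in every library. All 13 mitotic kinesins tested were lower, where 27.0% of the 15049 tested genes were lower and 27.3% were higher (54.4% in either direction). Their median log2 fold change was -0.69, a 1.62-fold lower level, beside 0.01 for all tested genes. A fall of at least 1.5-fold was found for 10 of the 13, against 8.14% of tested genes. Both MPS1i libraries lay below both DMSO libraries in all 13, against 37.9% of tested genes.

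By median, central spindle and spindle-sliding motors fell most in NCI-H647 (log2 fold changes of -0.95 and -0.92), but the groups of motors overlapped. The spindle-sliding motor KIFC1 had a log2 fold change of -0.41. KIF18A, which acts at microtubule ends, fell more (-0.81) than the central spindle motor KIF23 (-0.69). KIF20A had 73.4 and 73.9 CPM in MPS1i libraries, against 164.3 and 167.8 CPM in DMSO libraries. That is a 2.25-fold fall (log2 -1.17 ± 0.05, adjusted p = 1.68e-11), rank 209 from the most lowered of 15049 genes. KIF15 had 18.4 and 19.1 CPM after MPS1i, against 40.8 and 41.0 CPM after DMSO (log2 -1.12 ± 0.06, adjusted p = 1.16e-09). Replicates of KIF15 lay within 1 CPM of each other in both groups. KIF14 had 93.3 and 97.7 CPM after MPS1i, against 188 and 193 CPM after DMSO, a 1.99-fold fall (adjusted p = 9.44e-11). KIF11 had 109.5 and 111 CPM after MPS1i, against 208 and 209 CPM after DMSO (log2 -0.92 ± 0.04, adjusted p = 9.86e-11). The falls of these 4 motors ran from 1.89-fold to 2.25-fold.

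KIF20B had 102.5 and 108 CPM in MPS1i libraries of NCI-H647, against 183 and 211 CPM in DMSO libraries (log2 -0.90 ± 0.06, adjusted p = 8.74e-09). KIF18A had 50.7 and 52.6 CPM after MPS1i, against 90.6 and 90.6 CPM after DMSO (log2 -0.81 ± 0.05, adjusted p = 4.89e-09). KIF23, KIF18B, KIF4A, KIF2C and KIF22 had log2 fold changes between -0.69 and -0.54, and each was lower. KIFC1 fell less, with 53.0 and 53.7 CPM after MPS1i, against 70.6 and 71.3 CPM after DMSO (log2 -0.41 ± 0.05, adjusted p = 6.48e-06). KIF2A fell least, with 121 and 119 CPM after MPS1i, against 137 and 132 CPM after DMSO (log2 -0.17 ± 0.05, adjusted p = 0.00563).

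KIF20A shares its locus with BRD8 and CDC23 on the opposite strand. BRD8 had log2 fold changes of -0.23 ± 0.05 in NCI-H1944 and -0.19 ± 0.06 in NCI-H647, and CDC23 had 0.03 ± 0.06 and 0.11 ± 0.05. PDZD11, which overlaps KIF4A on the opposite strand, had -0.11 ± 0.09 and -0.06 ± 0.06. The part of these genes in the KIF20A and KIF4A values was not tested. DIMT1, which overlaps KIF2A on the opposite strand, was lower in NCI-H647 (log2 -0.27 ± 0.07, adjusted p = 0.00298), and its part in the KIF2A value was not tested. TMEM42 overlaps KIF15 on the same strand. It had at most 87 counts in any NCI-H647 library, where KIF15 had at least 254. In NCI-H1944 TMEM42 had 14 and 14 counts after MPS1i, against 11 and 10 counts after DMSO. The part of TMEM42 in the KIF15 values was not tested.

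Among 15 transport kinesins tested in NCI-H647, 3 were lower, 5 were higher and 7 were not called, beside 27.0% lower and 27.3% higher among all genes, with a median log2 fold change of 0.03. KIF5C, a kinesin-1 heavy chain enriched in neurons, had 37 and 38 counts in MPS1i libraries, against 19 and 15 counts in DMSO libraries, or 2.69 and 2.80 CPM against 0.991 and 0.885 CPM (log2 1.54 ± 0.30, adjusted p = 0.000504). The groups were apart, on few counts, and in NCI-H1944 the gene was at 0 in every library. KIF5A did not show this in NCI-H647, with 2.83 and 3.25 CPM after MPS1i, against 2.87 and 3.13 CPM after DMSO (log2 0.02 ± 0.23, adjusted p = 0.946). Of the 6 neuronal markers, 3 were tested in this line and 1, SYP, was higher (log2 2.48 ± 0.53, adjusted p = 0.00112). Their summed level was 39.5 to 40.2 CPM in MPS1i libraries and 34.4 to 34.7 CPM in DMSO libraries, with NEFL and RBFOX3 at 0 in all, and their part in the KIF5C value was not tested.

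KIF13B had 42.2 and 40.0 CPM in MPS1i libraries of NCI-H647, against 35.4 and 32.7 CPM in DMSO libraries (log2 0.27 ± 0.06, adjusted p = 0.00143). KIF3B had 183.5 and 193.5 CPM after MPS1i, against 167 and 174 CPM after DMSO (log2 0.14 ± 0.04, adjusted p = 0.0115). KIF3C had 31.4 and 32.9 CPM after MPS1i, against 26.1 and 28.7 CPM after DMSO (log2 0.23 ± 0.07, adjusted p = 0.00844). All 3 genes had both treated libraries above both controls, as did 38.4% of all genes tested in this line. KIFC3, a minus-end motor of cell junctions and the Golgi, was also higher (log2 0.21 ± 0.05, adjusted p = 0.00341), whereas KIF13A, which moves recycling endosomes, was lower (log2 -0.22 ± 0.05, adjusted p = 0.000797). KIF3A and KIF5B were lower by small amounts (log2 -0.21 ± 0.07, adjusted p = 0.02, and -0.09 ± 0.03, adjusted p = 0.046). DESeq2 called none of KIF3A, KIF3B, KIF3C, KIF5B, KIF13B (adjusted p = 0.0539) and KIFC3 (adjusted p = 0.0564). The KIF3B call was also lost without DMSO replicate 1 (adjusted p = 0.0692) or MPS1i replicate 2 (0.174), and the KIF3C call without the same libraries (0.127 and 0.0836). Without DMSO replicate 2 or MPS1i replicate 1, the KIF3A call was lost (adjusted p = 0.0648 and 0.139), as was that of KIF5B (0.306 and 0.143). Among 4 tested ciliary and other kinesins 1 was lower, a share near the 27.0% of all tested genes that were lower. This was KIF24, a regulator of ciliogenesis. It had 124 and 132 counts after MPS1i, against 267 and 236 counts after DMSO, or means of 9.37 CPM (MPS1i) and 13.9 CPM (DMSO) (log2 -0.57 ± 0.11, adjusted p = 0.000474). KIF24 overlaps UBAP1 on the opposite strand, which was higher in this line (log2 0.45 ± 0.05). In NCI-H1944 KIF24 was not called (log2 -0.23 ± 0.12, adjusted p = 0.172). The 6 multiciliated-cell markers summed in NCI-H647 to between 18.4 and 18.6 CPM in MPS1i libraries and between 17.0 and 17.4 CPM in DMSO libraries. Only 1 of them was tested in this line, and it was not called.

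Set side by side, 13 members were lower in both lines, namely 12 mitotic kinesins and KIF5B, and KIF3C was higher in both. Of the 12887 genes tested in both lines, 9.75% were lower in both and 9.47% were higher in both. Of those 13, 12 held a CHR or its variant in the promoter window, the exception being KIF22, and 11 held a CCAAT box. Among the other 12 members tested in both lines with a listed window, 1 held the variant (KIF16B), 0 held the CHR and 3 held a CCAAT box. The windows were described with the expression results known, and no share was tested. Across genes, the log2 fold changes of the lines had a Pearson correlation of 0.67 and a Spearman correlation of 0.40 over 13 mitotic kinesins, and -0.05 and -0.10 over 14 transport kinesins. Genes are not independent replicates, and the lines share no library.

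The response of the lines was then compared directly, through the interaction term of a joint fit on 12887 genes (response in NCI-H1944 minus response in NCI-H647). Among 13 mitotic kinesins, 5 had a response in NCI-H1944 above that in NCI-H647, that is, a smaller fall, and 0 had one below it, where 22.7% of all genes were above and 17.4% were below (40.1% in either direction). KIF15 differed most, with a log2 fold change of -0.51 in NCI-H1944 and -1.12 in NCI-H647 (difference 0.64 ± 0.15, adjusted p = 0.00143). KIF18A had -0.46 in NCI-H1944 and -0.81 in NCI-H647 (difference 0.38 ± 0.09, adjusted p = 0.00262), and KIF11 had -0.67 and -0.92 (difference 0.27 ± 0.06, adjusted p = 0.00163). KIF20B and KIF2A had differences of 0.29 ± 0.09 (adjusted p = 0.0135) and 0.17 ± 0.06 (adjusted p = 0.036). The KIF20B difference was lost without DMSO replicate 2 of NCI-H1944 (adjusted p = 0.0865), or DMSO replicate 2 (0.102) or MPS1i replicate 1 (0.065) of NCI-H647. That of KIF2A was lost in 9 of 12 alternatives. Among these were RLE scaling (adjusted p = 0.0717), no low-count filter (0.0685) and DESeq2 (0.178). Leaving out any of 6 libraries ended the KIF2A difference too. KIF20A and KIF14 had no called difference between the lines, but KIF20A passed without DMSO replicate 2 of NCI-H1944 (adjusted p = 0.0424) and KIF14 without DMSO replicate 1 of NCI-H1944 (0.0211). For the other 8 mitotic kinesins a missed threshold does not show that the lines respond alike.

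Of 14 transport kinesins, 3 had a response in NCI-H1944 above that in NCI-H647 and 5 had one below it, beside 22.7% and 17.4% of all genes, so the share above was near the background. KIF13B and KIF3B changed sign, each gene being lower in NCI-H1944 and higher in NCI-H647, though DESeq2 called neither gene in either line alone. The difference was -0.47 ± 0.10 (adjusted p = 0.000456) for KIF13B and -0.27 ± 0.06 (adjusted p = 0.000502) for KIF3B. KIF1C and KIFC3 also had a lower response in NCI-H1944 (differences -0.19 ± 0.05 and -0.20 ± 0.07), as did KIFC2 (difference -0.65 ± 0.20), which was called in neither line alone. KIF5A, KIF3C and KIF13A had a higher response in NCI-H1944 (differences 1.59 ± 0.45, 0.33 ± 0.12 and 0.22 ± 0.07). Leaving out 1 library ended the difference of KIFC3 in 4 cases (adjusted p from 0.0539 to 0.136), of KIFC2 in 2 (0.0522 and 0.121), of KIF3C in 5 (0.0521 to 0.148) and of KIF13A in 5 (0.0514 to 0.186). DESeq2 also ended the differences of KIF3C (adjusted p = 0.156) and KIF13A (0.107). The differences of KIF13B, KIF3B, KIF1C and KIF5A held in each of the 12 alternatives. TTK, the gene of the inhibited kinase, had log2 fold changes of -0.71 ± 0.08 in NCI-H1944 and -0.72 ± 0.04 in NCI-H647. CDKN1A, the CDK inhibitor p21, had 786 and 806 CPM in MPS1i libraries and 741 and 738 CPM in DMSO libraries of NCI-H1944, against 56.0 and 60.4 CPM (MPS1i) and 11.1 and 12.7 CPM (DMSO) in NCI-H647. Its part in the kinesin values was not tested.

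**Figure D4:**
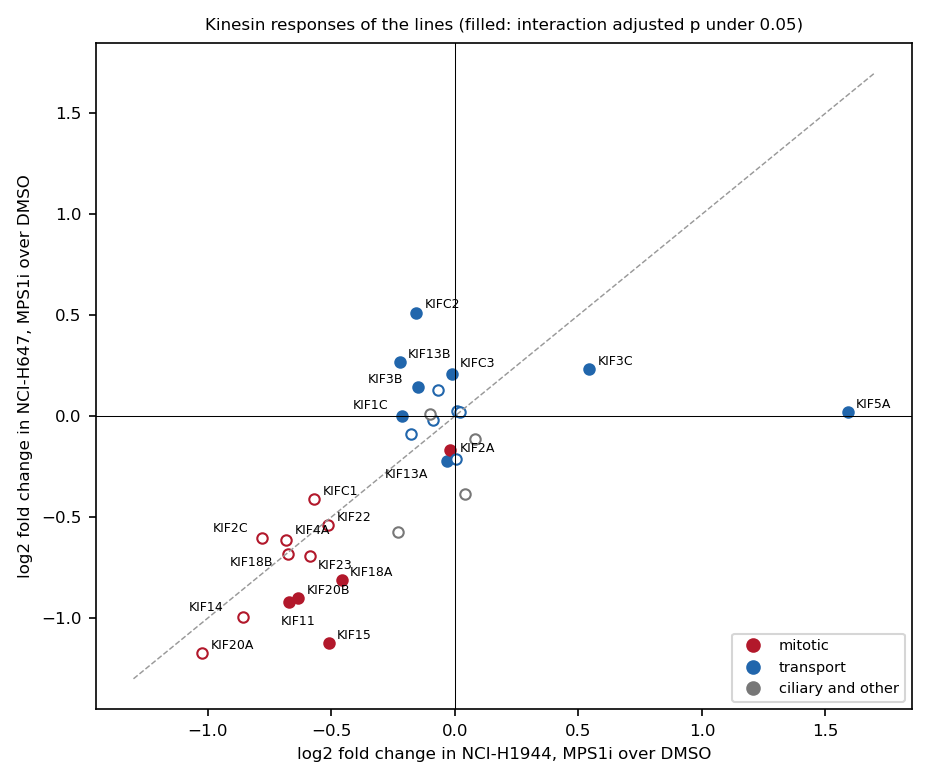
Log2 fold change of each kinesin tested in both lines, NCI-H1944 on the x axis and NCI-H647 on the y axis, coloured by role, with filled points where the interaction test passed an adjusted p of 0.05 and a dashed line of equal response. Mitotic kinesins lie in the lower left, KIF15 (-0.51, -1.12) below the dashed line, and KIF13B and KIF3B lie in the upper left quadrant.

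Summed over genes, the balance of the family moved away from the mitotic motors in both lines. Mitotic kinesins summed to 311 and 312 CPM in MPS1i libraries, against 465 and 467 CPM in DMSO libraries of NCI-H1944 (ratio 0.668), and to 959 and 972 CPM against 1601 and 1638 CPM in NCI-H647 (ratio 0.596). Transport kinesins summed to 1020 and 1047 CPM after MPS1i, against 1118 and 1098 CPM after DMSO in NCI-H1944 (ratio 0.933), and to 1318 and 1349 CPM against 1318 and 1362 CPM in NCI-H647 (ratio 0.995). The mitotic share of all kinesin counts was 22.8% and 22.4% in MPS1i libraries, against 28.7% and 29.2% in DMSO libraries of NCI-H1944. In NCI-H647 it was 41.5% and 41.3% after MPS1i, against 54.1% and 53.9% after DMSO. Per kilobase of exon (union of GENCODE 29 exons), KIF5B had the highest level of the family in every group, at 52.1 CPM per kb after MPS1i and 58.9 after DMSO in NCI-H1944, and at 71.8 and 76.2 in NCI-H647. In DMSO libraries KIF11 led the mitotic kinesins of NCI-H1944 at 13.2 CPM per kb. In those of NCI-H647, KIF2C (43.2 CPM per kb), KIF11 (42.9) and KIF20A (41.9) stood next to each other.

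**Figure D5:**
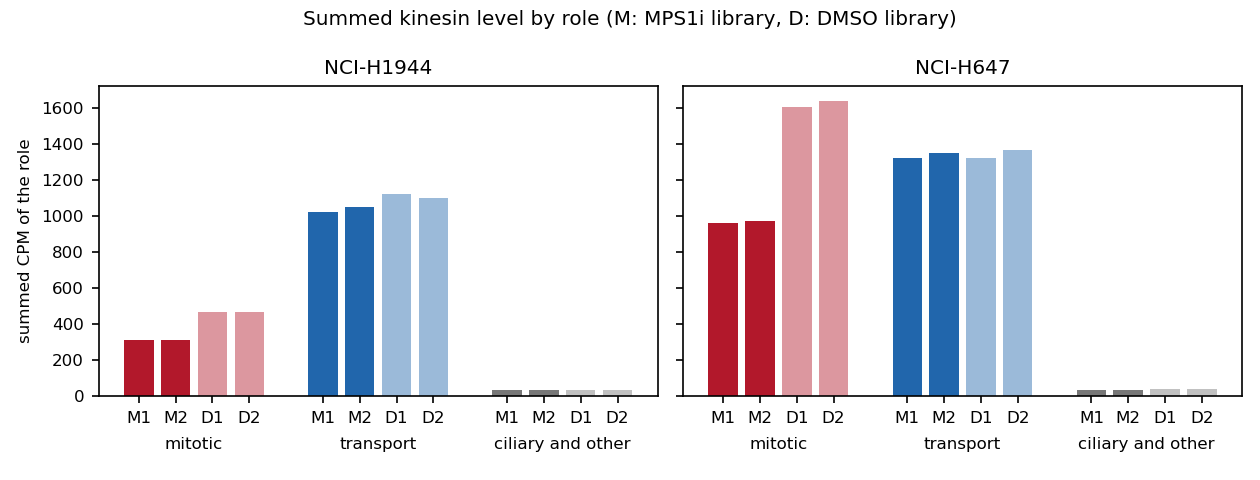
Summed CPM of mitotic, transport, and ciliary and other kinesins in each library of each line, with MPS1i (M) left of DMSO (D) and 1 bar per library. The mitotic sums of the treated libraries (311 and 312, then 959 and 972) lie below those of the controls (465 and 467, then 1601 and 1638). The transport sums of NCI-H1944 are also lower in the treated libraries (1020 and 1047, against 1118 and 1098), while those of NCI-H647 overlap.

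Transcripts of the proteins that mitotic kinesins work with were lower as well. Of 18 mitotic partners, 16 were lower in NCI-H1944 and 18 in NCI-H647, with median log2 fold changes of -0.62 and -0.66 and 0 higher in either line, beside 12.4% and 27.0% of all tested genes lower. CENPE, the kinesin that carries chromosomes to the equator, had 13.8 and 14.1 CPM in MPS1i libraries, against 26.0 and 25.3 CPM in DMSO libraries of NCI-H1944 (log2 -0.88 ± 0.08, adjusted p = 2.08e-07). In NCI-H647 it had 92.7 and 91.4 CPM after MPS1i, against 186 and 196 CPM after DMSO (log2 -1.05 ± 0.05, adjusted p = 5.36e-11). PLK1, the kinase that acts with KIF20A at the central spindle, had log2 fold changes of -1.05 ± 0.05 in NCI-H1944 and -0.80 ± 0.06 in NCI-H647. CIT, citron kinase, had a log2 fold change of -0.75 ± 0.08 in NCI-H1944, and in NCI-H647 it had 81.9 and 79.7 CPM after MPS1i, against 161.7 and 162.2 CPM after DMSO. PRC1, the antiparallel microtubule bundler to which KIF4A binds, had a log2 fold change of -0.63 ± 0.05 in both lines. NUMA1 and ECT2 were the partners not called in NCI-H1944.

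The lists of cargo transport genes are read against the same background, 12.4% lower and 13.6% higher in NCI-H1944 and 27.0% lower and 27.3% higher in NCI-H647. Of the kinesin cargo adaptors, 2 were lower and 2 higher among 17 tested in NCI-H1944, and 1 was lower and 8 higher among 18 tested in NCI-H647. The NCI-H1944 shares were near the background. The kinesin light chain KLC2 (log2 0.62 ± 0.06) and the JNK scaffold MAPK8IP3 (0.91 ± 0.09) were among those higher in NCI-H647. Of 21 genes of the opposing motor dynein and its dynactin complex, 4 were lower and 2 higher in NCI-H1944, and 6 were lower and 7 higher in NCI-H647, where both shares were near the background. DYNC1H1, the dynein heavy chain, was higher in NCI-H1944 (log2 0.29 ± 0.03), and NDEL1, a dynein regulator, was higher in NCI-H647 (0.77 ± 0.05). Of the tubulins, the track proteins, 2 were lower and 4 higher among 13 tested in NCI-H1944, and 6 were lower and 2 higher among 12 tested in NCI-H647. TUBA1B, a major alpha tubulin, was lower in both lines (log2 -0.10 ± 0.02 and -0.75 ± 0.03).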

How the data were processed

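RNA was sequenced in 8 libraries, whose titles give line, treatment and replicate. The authors deposited raw gene counts as whole numbers, 1 table for each line. GRCh38 and the tools HISAT2, STAR, StringTie, featureCounts, cutadapt, Trimmomatic and Trim Galore are named in the submitters' processing notes. The sources used here give no versions, strand setting or tool per table, so overlapping and near-identical genes are uncertain. Counts were filtered (filterByExpr, minimum count 10, minimum total 15), TMM-scaled and tested across all genes of a line with edgeR 4.0.16 in R 4.3.3 (quasi-likelihood test, Benjamini-Hochberg adjustment, threshold 0.05). Standard errors are the log2 fold change over the root of the F statistic. The lines were compared by an interaction term in a joint fit of genes passing the filter in both. The test was checked on simulated counts. Every member is reported, by value or by count. The members, role lists, partner lists and motifs were chosen with earlier results of these data known. Other normalizations, no filter, DESeq2 1.42.0, a minimum change of 1.5-fold (glmTreat), a replicate block and leaving out each library were alternatives. Motifs were searched on both strands of RefSeq windows.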

Additional observations from a re-analysis of the deposited data

Results flagged for a closer look

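For 13 of the 31 kinesins tested in both lines, the response to MPS1i differed between the lines by the interaction test of the joint fit (log2 response in NCI-H1944 minus that in NCI-H647, adjusted p under 0.05). That share is near the 40.1% of all 12887 genes that differed. The fall was smaller in NCI-H1944 for the mitotic motors KIF15 (0.64), KIF18A (0.38), KIF20B (0.29), KIF11 (0.27) and KIF2A (0.17). The response was higher in NCI-H1944 for the transport motors KIF5A (1.59), KIF3C (0.33) and KIF13A (0.22). It was lower in NCI-H1944 for KIFC2 (-0.65), KIF13B (-0.47), KIF3B (-0.27), KIFC3 (-0.20) and KIF1C (-0.19). The differences of KIF2A, KIF3C and KIF13A were lost under DESeq2, and those of KIF20B, KIFC2 and KIFC3 when some libraries were left out. The lines also differ in library kit and depth, which cannot be told apart from the line.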

How the results depend on the processing

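No called kinesin changed direction under any alternative, while values of some members not called, such as KIF17 and KIF13A in NCI-H1944, did change sign. The 12 lower mitotic kinesins of NCI-H1944 numbered 11 to 12 and the 13 of NCI-H647 stayed at 13 when each library was left out, and requiring a change over 1.5-fold left 3 and 6. That minimum also cut lower and higher genes to 42 and 385 in NCI-H1944 and to 464 and 792 in NCI-H647, by its construction. With no low-count filter NCI-H1944 had 1006 lower and 1319 higher genes, against 2075 and 2271. DESeq2 called 2666 genes higher in NCI-H647, against 4114. Transport counts were less stable. In NCI-H1944 the 4 lower became 2 with no filter, 2 under DESeq2, 0 with the minimum and 2 to 3 without 1 library, and the 2 higher became 1 under DESeq2, 0 with the minimum and 1 to 2 without 1 library. In NCI-H647 the 3 lower became 1 with library totals only, 1 under DESeq2, 0 with the minimum and 1 to 3 without 1 library, and the 5 higher became 3 with no filter, 1 under DESeq2, 1 with the minimum and 3 to 5 without 1 library. Of the ciliary and other kinesins, 0 to 1 were higher in NCI-H1944 (KIF26B without DMSO replicate 2, log2 2.47, adjusted p = 0.0222), and the 1 lower in NCI-H647 became 0 with the minimum. Between lines, leaving out 1 library gave 3 to 5 mitotic kinesins above, 1 to 3 transport kinesins above and 3 to 6 below. DESeq2 gave 1 transport kinesin above (KIF5A), and RLE scaling gave 1 mitotic kinesin below (KIF2C). Beyond the settings' own construction, the cause of these changes was not tested. No pairing by replicate number was seen (correlation of same-numbered deviations 0.04 in NCI-H1944 and -0.03 in NCI-H647). With 2 libraries per group this check cannot show that the samples were unpaired. With the replicate block 2327 genes were lower and 2490 higher in NCI-H1944, 4198 and 4236 in NCI-H647, and 5246 differed between lines, and no kinesin role count changed. Depth limits the members near or below 3 CPM, KIF5A and KIF5C among them.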
